A study of Homo sapiens with 24 samples.

Results

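Gene expression was followed in the HH line, an established human cutaneous T-cell lymphoma line, across a dose series of decitabine. The series was chosen by its library titles (prefix OC) and holds 4 of the 24 RNA-seq libraries of the study: cells exposed to decitabine at 5, 12.5 or 25 nM, and untreated cells of the same set. Exposure lasted 96 h, with drug added every 24 h to cells in logarithmic growth, and each condition had 1 library. A second untreated HH library (prefix OLC), from the set in which azacitidine was tested, was used to check directions. The other libraries came from HH with azacitidine and from the leukemia lines PF382 and TLOm1 with either drug. The labels give no culture, passage or date, so whether the 4 libraries came from separate cultures was not stated, and p-values measure only the spread between libraries.

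Decitabine is a deoxycytidine analog. It is phosphorylated by deoxycytidine kinase, enters DNA during replication and traps DNA methyltransferase 1, so that newly made DNA loses cytosine methylation over successive divisions. Methylation lies mainly on CG dinucleotides, and dense methylation of a CG-rich promoter is associated with silencing. Germline genes such as the MAGE and SSX families, imprinted genes and interferon-stimulated genes are the groups most often followed after such drugs. Methylation itself was not measured in these libraries.

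The 4 libraries held 17903403 to 20120797 counts, and the second untreated library 24315400. The number of genes at or above 1 CPM (counts scaled to a library of 1000000, with TMM factors) was 12316 in untreated cells and 12406, 12541 and 12788 at 5, 12.5 and 25 nM, against 12319 in the second untreated library. A count of 0 in the untreated library allowed up to 3 counts, or 0.157 CPM on the same scale, for counting error only. T-cell markers summed to 2325 CPM in untreated cells and 2407, 2373 and 2451 CPM at 5, 12.5 and 25 nM, and 11 of 12 passed the filter on low values, with LCK the exception. Of the B-cell markers, BLK, a kinase of the SRC family, accounted for most of the 362 to 405 CPM at the 3 doses and the 368 CPM in untreated cells. Myeloid, erythroid and fibroblast or endothelial markers each summed to at most 5.22 CPM in all 4 libraries. Of the epithelial markers, KRT7 was present, at 48 CPM in untreated cells and 39, 33.1 and 36.7 CPM at 5, 12.5 and 25 nM. Both untreated libraries differed beyond sampling noise (chi-square per degree of freedom 38.1 over 13335 genes), and edgeR called 880 of 13462 genes between them (6.54%), 615 higher and 265 lower in the OC set. The filter used the OC set alone, so a gene present only in the second untreated library was not tested. The direction of these calls is thus partly set by the filter. The 2 sets and the 2 untreated libraries cannot be told apart.

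The departure from untreated cells widened with dose, but by its median it stayed below the difference between both untreated libraries at every dose. Over the 12531 genes with a mean of at least 1 CPM, the median absolute log2 ratio of CPM + 1 to the untreated library was 0.109 at 5 nM, 0.156 at 12.5 nM and 0.181 at 25 nM, and 0.242 for the second untreated library. More than 2-fold higher levels were found for 16 genes at 5 nM, 143 at 12.5 nM and 304 at 25 nM, and more than 2-fold lower levels for 9, 27 and 55. The second untreated library had 80 genes higher and 107 lower by the same measure. At 12.5 and 25 nM the genes past 2-fold were mostly higher than in untreated cells, whereas those of the second untreated library were more often lower. The mean was taken over the OC set alone. A gene silent in untreated cells could therefore enter only by being present after treatment. A gene present only in the second untreated library could not enter, so this contrast in direction is partly set by the filter.

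**Figure D1:**
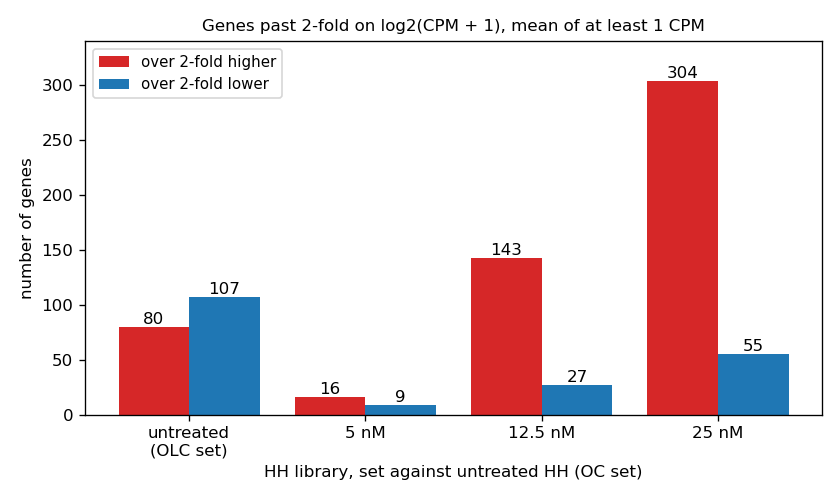
Number of genes more than 2-fold higher or lower on log2(CPM + 1) than in the untreated HH library of the OC set, among 12531 genes with a mean of at least 1 CPM over the HH libraries of the OC set. Each pair of bars is 1 library. Higher genes numbered 16, 143 and 304 at 5, 12.5 and 25 nM, and 80 in the second untreated library.

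The first comparison set the 3 doses together against untreated cells. GALNT5, an enzyme that starts mucin-type O-glycosylation, had 13.8, 34.7 and 32.7 CPM at 5, 12.5 and 25 nM, against 1.15 CPM in untreated cells and 1.46 CPM in the second untreated library. The 3 treated values lay above both untreated values without overlap, and the log2 fold change was 4.55 ± 0.60 (SE; edgeR quasi-likelihood F test, Benjamini-Hochberg adjusted p = 0.0418). TNFAIP3, which encodes the ubiquitin-editing inhibitor A20 of NF-kappaB signaling, had 293, 275 and 228 CPM at 5, 12.5 and 25 nM, against 495 and 355 CPM in both untreated libraries, a log2 fold change of -0.90 ± 0.13 (edgeR adjusted p = 0.0269). These were the only calls of 13462 genes tested by edgeR, 1 higher (0.00743%) and 1 lower (0.00743%), 0.0149% in all, and 1266 genes had an unadjusted p under 0.05. The counts were 40 and 15 with DESeq2, and 1 and 3 with limma voom. Without the 5 nM library edgeR called 22 higher and 11 lower, and without either higher dose it called none (954 genes without 12.5 nM and 768 without 25 nM at an unadjusted p under 0.05). With the second untreated library in place of the first, 2043 genes were called higher and 1782 lower, and set and drug cannot be told apart there.

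Among the next genes by p, all at an edgeR adjusted p of 0.259 and with 3 treated values on 1 side of both untreated libraries, higher log2 values were measured for SPN (CD43, 2.02), DGKG (a diacylglycerol kinase, 2.30), RTKN2 (2.08), IPCEF1 (1.88), ZNF302 (1.39), HSBP1L1 (1.38), CEP70 (0.98), OTUB2 (a deubiquitinase, 0.98), EPB41L2 (a membrane skeleton protein, 0.88), ALDH5A1 (succinate semialdehyde dehydrogenase, 0.67) and MAPKAPK3 (0.59). Lower values were measured for TNFRSF9 (the costimulatory receptor 4-1BB, -2.24), SLC2A6 (-0.76), ZNF282 (-0.61), LRP11 (-0.59), SSNA1 (-0.59), KLF6 (-0.58), SLC27A4 (-0.56), NFKB2 (-0.53) and MID1IP1 (-0.42). None of these 20 passed the threshold of 0.05 in this comparison. In this test the differences between the doses count as spread, and the lone untreated library is assumed to vary as the others do.

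The second comparison asked which genes followed the dose, as a slope on log2 dose among the 3 treated HH libraries, given per doubling of the dose. It uses no untreated library, and its error is pooled over the dose series of every line and drug. With 1 library per dose, that error is the departure of the doses from a straight line on log2 dose, not a spread between repeat libraries. By edgeR, 579 genes rose with dose (4.3% of 13462) and 287 fell (2.13%), with 2590 at an unadjusted p under 0.05. A gene silent in untreated cells was tested only if it was present after treatment. The share of rising genes is therefore partly set by the filter on low values. The median slope was 0.40 for the rising genes and -0.21 for the falling ones, against -0.01 over all genes tested. Of the rising genes, 565 had levels in strict order over the 3 doses, and all 579 were higher at 25 nM than in untreated cells, with a median log2 ratio of 1.09. Of the falling genes, 282 were in strict order and all 287 were lower at 25 nM than in untreated cells, with a median log2 ratio of -0.53.

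Neither untreated library entered the slope, but the 25 nM library did, so the place of its level relative to untreated cells is partly set by the choice of these genes and is given as a description. The 25 nM level was above both untreated libraries for 559 of the 579 rising genes (96.5%), against 37.5% of all genes tested. It was below both for 267 of the 287 falling genes (93.0%), against 35.4% of all genes tested. All 3 doses lay above both untreated libraries for 277 rising genes and below both for 139 falling genes. Of the 579 rising genes 425 were at or above 1 CPM in untreated cells and 139 were under 1 CPM in both untreated libraries, while 284 of the 287 falling genes were at or above 1 CPM in untreated cells. The counts rested on the outer doses: 27 genes rose and 8 fell without the 25 nM library, 50 rose and 8 fell without the 5 nM library, and 581 rose and 235 fell without the 12.5 nM library. DESeq2 called 335 rising and 136 falling. The fitted 25 nM level against untreated cells, an alternative chosen after the data were seen, gave 1280 genes higher (9.51%) and 1102 lower (8.19%), of which 1042 and 823 were also called against the second untreated library.

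CCNA1, the germline cyclin A1, had the smallest p of all. It had 0.157 CPM in untreated cells and 0.270, 1.42 and 12.2 CPM at 5, 12.5 and 25 nM, and 0.215 CPM in the second untreated library (slope 2.72 ± 0.18, edgeR adjusted p = 3.8e-10). Only at 25 nM was it well above 1 CPM. CCNA1 was under 0.5 CPM in both untreated libraries and at 5 nM, and passed the filter on low values through the higher doses. USP11, a deubiquitinase, had 4.33 CPM in untreated cells and 5.68, 13.1 and 22.6 CPM at 5, 12.5 and 25 nM (slope 0.85 ± 0.07, edgeR adjusted p = 2.0e-08). CARD9, an adaptor of innate receptors for fungi, had 2.14 CPM in untreated cells and 4.33, 13.8 and 25.2 CPM at 5, 12.5 and 25 nM (slope 1.07 ± 0.09, edgeR adjusted p = 2.0e-08). AIRE, the transcription factor that drives tissue-restricted genes in the thymus, had 3.29 CPM in untreated cells and 5.03, 17.5 and 46 CPM at 5, 12.5 and 25 nM (slope 1.38 ± 0.11, edgeR adjusted p = 2.2e-08). For these 3 genes both untreated libraries lay below the 5 nM level, and each further dose was higher than the one before. NPHP4, which encodes a protein of the ciliary transition zone, had 49.7 CPM in untreated cells and 60.8, 87.5 and 141 CPM at 5, 12.5 and 25 nM (slope 0.52 ± 0.05, edgeR adjusted p = 7.9e-08). POLR1A, the largest subunit of RNA polymerase I, had 92.5 CPM in untreated cells and 109, 174 and 220.3 CPM at 5, 12.5 and 25 nM (slope 0.44 ± 0.04, edgeR adjusted p = 1.2e-07). The second untreated library, at 65.9 CPM for NPHP4 and 123 CPM for POLR1A, was above the 5 nM level of both and below the 12.5 nM level.

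Among the falling genes, MARCKSL1, an actin-regulating protein, had 52.5 CPM in untreated cells and 53.3, 34.1 and 26.7 CPM at 5, 12.5 and 25 nM (slope -0.43 ± 0.05, edgeR adjusted p = 8.5e-07). CYTIP, a regulator of leukocyte adhesion, had 105 CPM in untreated cells and 111, 85 and 62.7 CPM at 5, 12.5 and 25 nM (slope -0.35 ± 0.04, edgeR adjusted p = 5.3e-06). For MARCKSL1 and CYTIP the 5 nM level was no lower than in untreated cells, and the fall lay between 5 and 25 nM. DHCR7 and MSMO1, also among the 6 falling genes with the smallest p, act in cholesterol synthesis and are described with that pathway. Of these genes with the smallest p, CCNA1 and CYTIP lost the call without the 25 nM library, and POLR1A, DHCR7, MARCKSL1, MSMO1 and CYTIP without the 5 nM library.

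**Figure D2:**
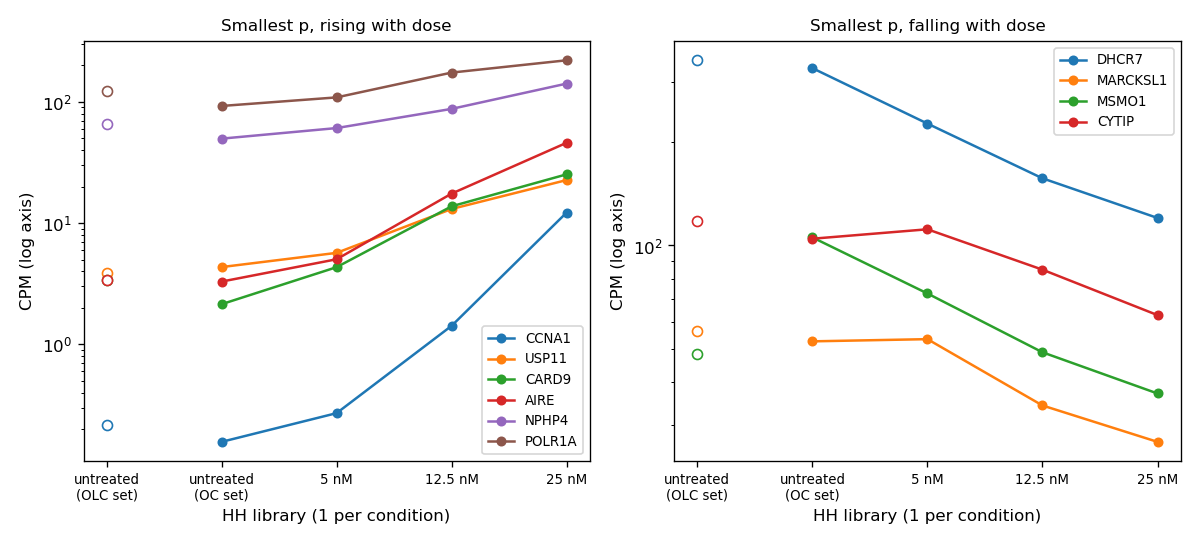
CPM (log axis) in the 5 HH libraries, 1 per condition, of 6 rising and 4 falling genes among those with the smallest p of the dose slope; filled points joined by lines are the OC set and open points the second untreated library. CCNA1 had 0.270 CPM at 5 nM and 12.2 CPM at 25 nM, and MARCKSL1 had 26.7 CPM at 25 nM, against 52.5 CPM in untreated cells.

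Cholesterol synthesis was the gene group with the most members that followed the dose. The pathway turns acetyl-CoA into mevalonate, then into isoprenoid units, squalene, lanosterol and cholesterol, and its enzymes are switched on together by the transcription factor SREBP-2 when cell sterol is low. Of 23 tested members, 18 fell with dose and 0 rose (edgeR, 0 rising at an unadjusted p under 0.05, and 0 rising by DESeq2 or limma voom), against 2.13% of all genes falling. The median slope was -0.26, against -0.01 over all genes tested. The summed level was 7936 CPM in untreated cells and 6027, 4803 and 4018 CPM at 5, 12.5 and 25 nM, and 7089 CPM in the second untreated library. All 3 doses lay below the untreated library for 22 of the 23 genes, and below both untreated libraries for 16. The sum was lower at each step of the dose. Without the 25 nM library 4 members fell and without the 5 nM library 3, while the other alternatives gave 16 to 21.

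The steepest slope of the group belonged to HMGCS1, which makes HMG-CoA, and later enzymes up to farnesyl diphosphate followed it, with PMVK the exception. HMGCS1 had 945 CPM in untreated cells and 590.0, 395 and 224 CPM at 5, 12.5 and 25 nM (slope -0.59 ± 0.06, edgeR adjusted p = 2.8e-05). The second untreated library, at 627 CPM for HMGCS1, lay between the untreated and the 5 nM values of the OC set. MVK and MVD, the mevalonate kinase and decarboxylase, had 34.9 and 90 CPM at 25 nM, against 85.7 and 219 CPM in untreated cells (slopes -0.24 and -0.28, edgeR adjusted p = 0.00382 and 0.000138). FDPS, the farnesyl diphosphate synthase, had 512 CPM in untreated cells and 373, 285 and 247 CPM at 5, 12.5 and 25 nM (slope -0.26 ± 0.04, edgeR adjusted p = 2.2e-05). For MVK, MVD and FDPS all 3 doses lay below both untreated libraries. PMVK, phosphomevalonate kinase, had 47.8 CPM in untreated cells and 44.7, 40.1 and 50.1 CPM at 5, 12.5 and 25 nM and was the only member above 0 in slope.

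The later, sterol-specific steps fell as well. FDFT1, squalene synthase, had 832 CPM in untreated cells and 661, 521 and 436 CPM at 5, 12.5 and 25 nM (slope -0.26 ± 0.04, edgeR adjusted p = 7.2e-05). SQLE, squalene epoxidase, had 779 CPM in untreated cells and 607, 509.7 and 381 CPM at 5, 12.5 and 25 nM (slope -0.28 ± 0.04, edgeR adjusted p = 1.9e-05). CYP51A1, lanosterol demethylase, had 249.7 CPM in untreated cells and 176, 136 and 94 CPM at 5, 12.5 and 25 nM (slope -0.38 ± 0.05, edgeR adjusted p = 6.3e-06). All 3 were highest in untreated cells and lowest at 25 nM, though the second untreated library, at 567 CPM for SQLE, lay below the 5 nM level of that gene. DHCR7, a sterol reductase at the end of the pathway, had 329 CPM in untreated cells and 227, 157 and 120.3 CPM at 5, 12.5 and 25 nM (slope -0.39 ± 0.04, edgeR adjusted p = 1.8e-07). MSMO1, a sterol demethylase, had 106 CPM in untreated cells and 72.5, 48.8 and 37 CPM at 5, 12.5 and 25 nM (slope -0.42 ± 0.05, edgeR adjusted p = 1.4e-06). Its second untreated library stood at 48.3 CPM, about the 12.5 nM level, so this gene's untreated libraries did not lie together.

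Regulators of the pathway moved less. INSIG1, the sterol sensor that holds back SREBP processing, had 705 CPM in untreated cells and 529, 489 and 415 CPM at 5, 12.5 and 25 nM (slope -0.15 ± 0.04, edgeR adjusted p = 0.0361). SREBF2, which encodes SREBP-2, had 714 CPM in untreated cells and 677, 586 and 577 CPM at 5, 12.5 and 25 nM and did not pass (slope -0.10 ± 0.04, edgeR adjusted p = 0.105). Its promoter is shown because it was the only 1 among 17 pathway genes with a promoter window (RefSeq, GRCh38.p14, 250 bases before to 50 after the start) that held the sterol regulatory element letters TCACNCCAC on either strand, which 1.13% of 35116 such windows held. It lies at chr22:41832855-41833154, plus strand, with the match in capitals.
SREBF2: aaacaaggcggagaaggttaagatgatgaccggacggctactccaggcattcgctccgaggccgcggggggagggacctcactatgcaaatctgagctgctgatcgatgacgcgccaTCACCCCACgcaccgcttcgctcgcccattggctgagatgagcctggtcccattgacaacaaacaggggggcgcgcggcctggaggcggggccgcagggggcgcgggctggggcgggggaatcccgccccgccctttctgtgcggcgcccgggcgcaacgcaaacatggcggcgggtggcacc

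Fatty acid synthesis, which the related factor SREBP-1 controls, had few called slopes. Of 11 tested genes, ACLY fell and SREBF1 rose, against 2.13% of all genes falling and 4.3% rising. All 3 doses lay below the untreated library for 8 genes and below both untreated libraries for 6, and the median log2 fold change of the 3 doses was -0.32, against 0.00 over all genes. The summed level was 5932 CPM in untreated cells and 4918, 4389.5 and 4158 CPM at 5, 12.5 and 25 nM, with 5618 CPM in the second untreated library. ACLY, the cytosolic source of acetyl-CoA, had 689 CPM in untreated cells and 558, 483 and 437 CPM at 5, 12.5 and 25 nM (slope -0.15 ± 0.04, edgeR adjusted p = 0.00901). SREBF1, which encodes SREBP-1, had 697 CPM in untreated cells and 738, 805 and 1071 CPM at 5, 12.5 and 25 nM (slope 0.23 ± 0.06, edgeR adjusted p = 0.0250). FASN, fatty acid synthase, had 1261 CPM in untreated cells and 889, 776 and 715 CPM at 5, 12.5 and 25 nM, and SCD, the stearoyl-CoA desaturase, had 2368 CPM in untreated cells and 1936, 1518 and 1158 CPM at 5, 12.5 and 25 nM, with no call in edgeR (adjusted p = 0.198 and 0.0758). SCD was called falling by DESeq2.

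**Figure D3:**
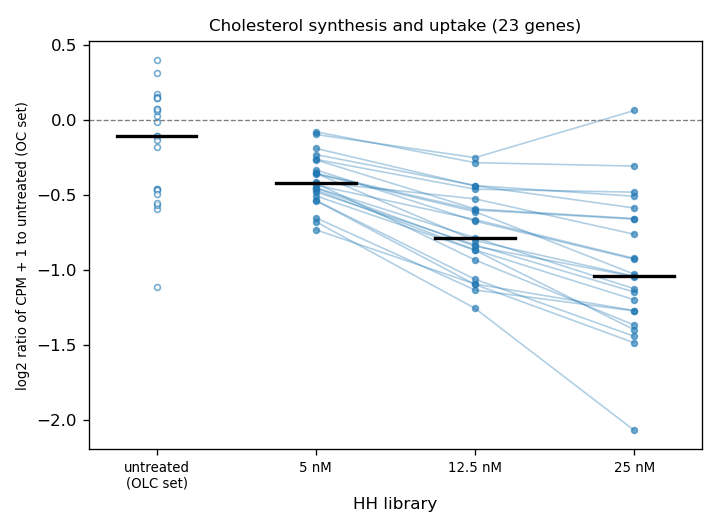
Log2 ratio of CPM + 1 to the untreated HH library of the OC set for the 23 tested cholesterol genes, in the second untreated library (open points) and at 5, 12.5 and 25 nM; thin lines join 1 gene and black bars are medians. The doses descended below 0 in order, with 22 of 23 genes below untreated cells at every dose.

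Genes that are normally limited to the germ line rose from very low levels. Of 50 cancer-testis antigen genes found, 9 passed the filter on low values, 5 of them rose with dose (edgeR) and none fell (0 falling at an unadjusted p under 0.05, and 0 by DESeq2 or limma voom), while 17 had no count in any of the 5 HH libraries. A gene silent in untreated cells could pass the filter only by being present after treatment, so the share of tested genes that rose is not a measure of the group. MAGEB1 had 1.36 CPM in untreated cells and 2.05, 13.8 and 31.3 CPM at 5, 12.5 and 25 nM, the highest of the group at 25 nM (slope 1.60 ± 0.32, edgeR adjusted p = 0.0336). MAGEB2 had 0.0522 CPM in untreated cells and 0, 1.31 and 6.41 CPM at 5, 12.5 and 25 nM (slope 2.62 ± 0.30, edgeR adjusted p = 7.2e-05). MAGEB3 had 0 CPM in untreated cells and 0.162, 0.682 and 3.31 CPM at 5, 12.5 and 25 nM (slope 2.0 ± 0.29, edgeR adjusted p = 3.5e-05). All 3 were highest at 25 nM, and MAGEB2 and MAGEB3 were near the floor in both untreated libraries and at 5 nM. SSX1 had 0 CPM in untreated cells and 0, 0.852 and 5.86 CPM at 5, 12.5 and 25 nM (slope 3.0 ± 0.41, edgeR adjusted p = 0.000481), and MAGEA3 had 0 CPM in untreated cells and 0, 0.341 and 2.10 CPM at 5, 12.5 and 25 nM (slope 2.83 ± 0.60, edgeR adjusted p = 0.00893). The MAGEA and SSX genes have near-identical copies, so the split of reads between copies is uncertain. PASD1, by contrast, was present throughout, at 26.9 CPM in untreated cells and 22.2, 19.4 and 17.8 CPM at 5, 12.5 and 25 nM, with no call (edgeR adjusted p = 0.423). DESeq2 called 3 of the 9 as rising, 10 rose without the filter on low values, and without 5 nM 2 rose and without 25 nM none.

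Genes of meiosis and of the germline piRNA pathway, which silences transposons in germ cells, rose in part. Of 19 tested genes, 6 rose and none fell (edgeR, 0 falling at an unadjusted p under 0.05, and 0 by DESeq2 or limma voom), against 4.3% of all genes rising and 2.13% falling. BRDT, RNF17 and TEX11 were under 0.5 CPM in both untreated libraries and passed the filter through the 25 nM library, so here too the share that rose is partly set by the filter. BRDT, the testis bromodomain protein, had no count in either untreated library or at 5 nM, 0.341 CPM at 12.5 nM and 4.01 CPM at 25 nM, at least 25.6-fold above the 3-count floor of the untreated library (slope 3.61 ± 0.42, edgeR adjusted p = 4.0e-06). TEX11, a meiotic protein, had 0.157 CPM in untreated cells and 0.270, 0.284 and 3.61 CPM at 5, 12.5 and 25 nM (slope 2.10 ± 0.39, edgeR adjusted p = 0.00325), and RNF17, a Tudor-domain protein, had 0 CPM in untreated cells and 0.0541, 0.284 and 2.40 CPM at 5, 12.5 and 25 nM (slope 2.68 ± 0.43, edgeR adjusted p = 0.000157). PIWIL2, a PIWI protein that binds piRNAs, had 0.470 CPM in untreated cells and 0.324, 0.341 and 2.0 CPM at 5, 12.5 and 25 nM (slope 1.35 ± 0.36, edgeR adjusted p = 0.0262). These 4 genes were near the floor at 5 nM and above 1 CPM only at 25 nM. SMC1B and STAG3, meiotic cohesin subunits, were already present, at 17.3 and 17.2 CPM at 25 nM and 6.53 and 11 CPM in untreated cells (slopes 0.54 and 0.33, edgeR adjusted p = 0.000551 and 0.00995). Without the 25 nM library none of the 6 was called and without 5 nM 2 were.

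Silence and its loss were also counted without a test. Of 10454 genes with 3 counts or fewer in both untreated HH libraries, none reached 1 CPM at all 3 doses (8 did at 0.5 CPM and 0 at 2 CPM). Taken dose by dose, a reading chosen after the data were seen, 0 of them reached 1 CPM at 5 nM, 16 at 12.5 nM and 81 at 25 nM. PNMA5 had 0.0541, 0.795 and 15.4 CPM at 5, 12.5 and 25 nM, from 308 counts at the highest dose and 1 count in untreated cells. LPIN3, a phosphatidic acid phosphatase of the lipin family, had 0.595, 4.03 and 8.71 CPM at 5, 12.5 and 25 nM, against 0.0522 CPM in untreated cells. H19, the maternally expressed imprinted RNA, had no count in either untreated library and 0.0541, 2.73 and 8.71 CPM at 5, 12.5 and 25 nM, at least 55.6-fold above the floor at the highest dose. ONECUT2, a homeobox factor of liver and neurons, had 0 CPM in untreated cells and 0.0541, 0.398 and 4.21 CPM at 5, 12.5 and 25 nM (slope 3.10 ± 0.31, edgeR adjusted p = 1.8e-07). CTCFL, the germline paralog of CTCF, and MYL9, a myosin light chain, had no count in either untreated library and 3.81 and 4.01 CPM at 25 nM. In bulk RNA, a few cells with much RNA and many cells with little cannot be told apart.

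The promoters of CCNA1, MAGEB2 and ONECUT2 are shown with each CG in capitals, since CG is the site that the drug's target methylates and all 3 genes had slopes above 2. They come from RefSeq (GRCh38.p14) and run from 250 bases before to 50 after the start. CCNA1 lies at chr13:36431705-36432004, plus strand, MAGEB2 at chrX:30215313-30215612, plus strand and ONECUT2 at chr18:57435124-57435423, plus strand.
CCNA1: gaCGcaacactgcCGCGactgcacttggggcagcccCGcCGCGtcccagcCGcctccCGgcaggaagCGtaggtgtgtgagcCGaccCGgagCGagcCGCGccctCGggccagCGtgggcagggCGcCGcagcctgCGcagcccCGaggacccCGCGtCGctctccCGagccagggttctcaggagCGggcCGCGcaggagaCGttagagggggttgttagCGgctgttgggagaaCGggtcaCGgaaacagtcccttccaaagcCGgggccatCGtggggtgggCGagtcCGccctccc
MAGEB2: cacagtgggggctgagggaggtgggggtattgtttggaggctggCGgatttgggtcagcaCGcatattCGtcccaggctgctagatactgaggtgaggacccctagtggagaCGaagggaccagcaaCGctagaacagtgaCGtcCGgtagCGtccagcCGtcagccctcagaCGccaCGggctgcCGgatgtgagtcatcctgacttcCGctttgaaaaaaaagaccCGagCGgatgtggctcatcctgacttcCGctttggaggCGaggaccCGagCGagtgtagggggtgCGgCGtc
ONECUT2: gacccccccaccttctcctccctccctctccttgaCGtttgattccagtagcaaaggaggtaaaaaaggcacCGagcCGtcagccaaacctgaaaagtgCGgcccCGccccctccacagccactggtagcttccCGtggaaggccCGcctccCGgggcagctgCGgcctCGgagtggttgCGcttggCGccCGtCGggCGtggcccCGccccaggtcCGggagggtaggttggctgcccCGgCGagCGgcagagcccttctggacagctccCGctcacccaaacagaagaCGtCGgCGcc
They hold 35, 21 and 24 CG, against a median of 14 (quartiles 4 and 28) over the 35116 windows of the table. H19, by the same count, has 6 in its window. The table held a window for 65.0% of the genes tested, so CG content was not compared between gene sets.

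Other genes subject to imprinting or to promoter silencing in cancer moved singly. Of 19 tested imprinted genes 4 rose and none fell, against 4.3% of all genes rising and 2.13% falling (edgeR; 0 falling at an unadjusted p under 0.05, and 0 by DESeq2 or limma voom). TP73, a p53 relative also listed among tumor suppressors silenced by methylation, had 12.8 CPM in untreated cells and 23.1, 35.6 and 57.8 CPM at 5, 12.5 and 25 nM (slope 0.57 ± 0.07, edgeR adjusted p = 2.3e-05), above both untreated libraries at every dose. FAM50B had 3.71 CPM in untreated cells and 2.76, 4.60 and 7.96 CPM at 5, 12.5 and 25 nM (slope 0.67 ± 0.10, edgeR adjusted p = 3.9e-05), and H19, described above, was the third. H19 passed the filter on low values only through the treated libraries, and the H19 slope (edgeR adjusted p = 0.0333) was not called by DESeq2 (adjusted p = 0.678), by limma voom (adjusted p = 0.278) or by edgeR without the filter (adjusted p = 0.0713). PHLDA2, a growth-limiting imprinted gene, had 3.60 CPM in untreated cells and 1.41, 2.50 and 4.61 CPM at 5, 12.5 and 25 nM (slope 0.75 ± 0.14, edgeR adjusted p = 0.000635), but its 7.02 CPM in the second untreated library exceeded all 3 doses. S100A11, a calcium-binding protein that was picked after its values were seen, had 1.62 CPM in untreated cells and 2.60, 5.57 and 17.6 CPM at 5, 12.5 and 25 nM (slope 1.28 ± 0.11, edgeR adjusted p = 1.3e-07). The zinc finger genes of 19q13, a cluster often methylated in tumors, had 0 calls of 28 tested (edgeR; 2 rising and 2 falling at an unadjusted p under 0.05, and 0 by DESeq2 or limma voom). None of the 53 clustered protocadherin genes passed the filter on low values.

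Interferon-stimulated genes rose in part, with small slopes. Cells express these genes when cytosolic sensors detect foreign or endogenous double-stranded RNA, or when interferon binds its receptor. Of 38 tested, 10 rose with dose (edgeR) and none fell (0 falling at an unadjusted p under 0.05, and 0 by DESeq2 or limma voom), against 4.3% of all genes rising. The median slope was 0.17, against -0.01 over all genes. All 3 doses lay above both untreated libraries for 15 genes and below both for 3. The summed level was 911 CPM in untreated cells and 921, 995 and 1058 CPM at 5, 12.5 and 25 nM, against 832 CPM in the second untreated library. The sum at 5 nM was thus close to that of untreated cells. Without the 25 nM library none of the 38 was called (and without 5 nM 1 was), while the other alternatives gave 8 to 13.

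Among them were 2 RNA sensors of the RIG-I family. DHX58, which encodes LGP2, had 9.14 CPM in untreated cells and 10.1, 14.1 and 23.4 CPM at 5, 12.5 and 25 nM (slope 0.53 ± 0.07, edgeR adjusted p = 2.4e-05). DDX58, which encodes RIG-I, had 18 CPM in untreated cells and 20.1, 25.4 and 33 CPM at 5, 12.5 and 25 nM (slope 0.31 ± 0.07, edgeR adjusted p = 0.00967). OAS2, an oligoadenylate synthetase that responds to double-stranded RNA, had 14.3 CPM in untreated cells and 14.6, 20.8 and 29.8 CPM at 5, 12.5 and 25 nM (slope 0.44 ± 0.07, edgeR adjusted p = 9.6e-05). All 3 were highest at 25 nM and exceeded both untreated libraries at every dose. IFITM1, an antiviral membrane protein, had 1.41 CPM in untreated cells and 3.35, 4.32 and 8.01 CPM at 5, 12.5 and 25 nM (slope 0.56 ± 0.11, edgeR adjusted p = 0.00202). IFITM2, a close paralog whose reads may be split with it, had 0.992 CPM in untreated cells and 1.14, 2.61 and 4.41 CPM at 5, 12.5 and 25 nM (slope 0.83 ± 0.16, edgeR adjusted p = 0.00108). ISG15, the ubiquitin-like modifier, and HERC5, its ligase, had 39.1 and 31.2 CPM at 25 nM, against 26.6 and 18 CPM in untreated cells (slopes 0.25 and 0.38, edgeR adjusted p = 0.0128 and 0.00354). PARP14, XAF1 and PARP12 completed the 10, with 24.8, 2.05 and 2.15 CPM at 25 nM, against 12.9, 0.835 and 0.835 CPM in untreated cells (edgeR adjusted p = 0.0207, 0.00663 and 0.00681). For ISG15, HERC5, XAF1 and PARP12 the 5 nM level was below untreated cells. DESeq2 called 8 of the 38 and did not call DDX58 or ISG15.

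The neighboring groups had few called slopes, as did all genes (4.3% rising and 2.13% falling). At those shares lists this short hold few calls, so the counts do not set these groups apart. Of 17 other nucleic acid sensors and adaptors tested, a list without DHX58 and DDX58, 0 had a called slope in either direction (edgeR; 0 at an unadjusted p under 0.05, and 0 by DESeq2 or limma voom). For the 3 doses against untreated cells, 2 of the 17 were higher and 1 lower at an unadjusted p under 0.05 (edgeR). Of 19 genes of MHC class I presentation CANX alone rose, and of 17 of MHC class II presentation none was called (edgeR; 3 falling at an unadjusted p under 0.05, and 0 by DESeq2 or limma voom).

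Genes of NF-kappaB signaling and of the TNF receptor family held TNFAIP3, 1 of the calls of the first comparison, and many of them lay below untreated cells at every dose. NF-kappaB is held inactive by inhibitors such as IkappaB and A20, which are themselves its targets, and is often active in cutaneous T-cell lymphoma. Of 25 tested genes, TNFAIP3 and TRAF1 fell with dose and 0 rose (edgeR; 2 rising at an unadjusted p under 0.05, 0 by DESeq2 and 1 by limma voom). The shares over all genes tested were 2.13% falling and 4.3% rising. All 3 doses lay below both untreated libraries for 13 genes, that is 13 of 25 against 19.6% of all genes tested, and above both for 1. The median log2 fold change of the 3 doses was -0.16, against 0.00 over all genes. TRAF1, a signal adaptor of TNF receptors, had 1396 CPM in untreated cells and 923, 755 and 624 CPM at 5, 12.5 and 25 nM, and 1095 CPM in the second untreated library (slope -0.24 ± 0.04, edgeR adjusted p = 5.4e-05). TNFAIP3, given above, had a slope of -0.15 ± 0.04 (edgeR adjusted p = 0.0128). For both genes all 3 doses lay below both untreated libraries.

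Other members were lower at every dose without a slope. NFKB2, the precursor of p52, had 450.1 CPM in untreated cells and 341, 303 and 293 CPM at 5, 12.5 and 25 nM, with 502 CPM in the second untreated library. NFKB1 had 2021 CPM in untreated cells and 1772, 1630.2 and 1524 CPM at 5, 12.5 and 25 nM, and 2162 CPM in the second. NFKBIA, which encodes IkappaB-alpha, had 398 CPM in untreated cells and 279.8, 296 and 316 CPM at 5, 12.5 and 25 nM, and 497 CPM in the second. None of the 3 passed in the effect or in the slope test (edgeR adjusted p = 0.259, 0.468 and 0.462 for the effect), and the whole step lay between untreated cells and 5 nM for NFKBIA. TNFRSF9, listed among the costimulatory receptors, had 16.4 CPM in untreated cells and 5.35, 3.35 and 1.70 CPM at 5, 12.5 and 25 nM (slope -0.68 ± 0.16, edgeR adjusted p = 0.0117), and 8.23 CPM in the second untreated library. Its level dropped at each dose, but DESeq2 did not call it.

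**Figure D4:**
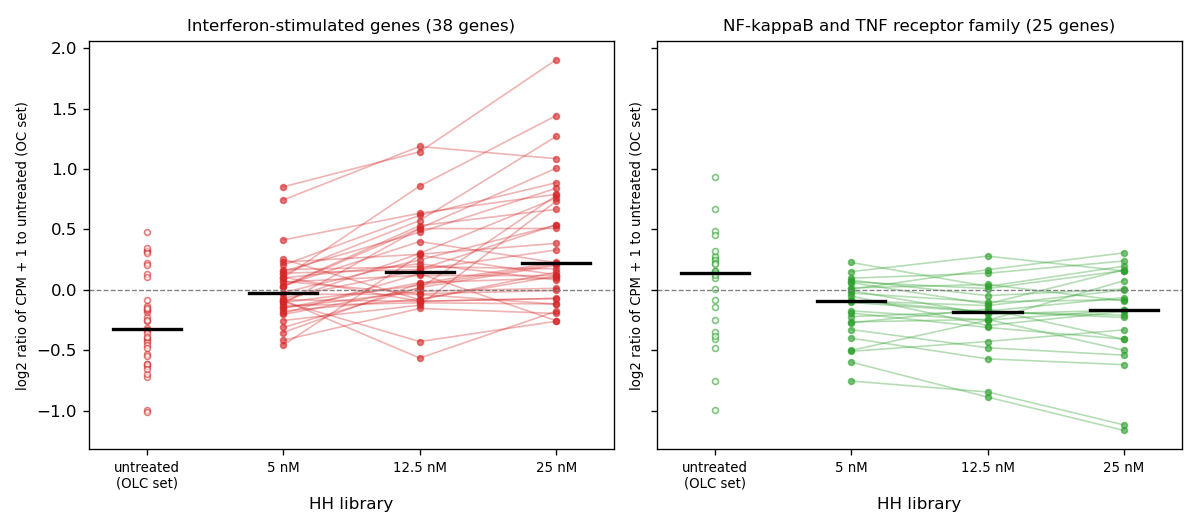
Log2 ratio of CPM + 1 to the untreated HH library of the OC set for 38 tested interferon-stimulated genes and 25 tested NF-kappaB and TNF receptor family genes, in the second untreated library (open points) and at 5, 12.5 and 25 nM; thin lines join 1 gene and black bars are medians. Of the interferon-stimulated genes 10 rose with dose, and of the NF-kappaB genes 2 fell and 13 were below both untreated libraries at every dose.

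In growth and stress programs few members were called, while most slopes lay below 0. MYC, the growth regulator, had 470.5 CPM in untreated cells and 464, 368 and 298 CPM at 5, 12.5 and 25 nM (slope -0.27 ± 0.04, edgeR adjusted p = 5.3e-05), with 462 CPM in the second untreated library. MYC at 5 nM was thus level with untreated cells and lower at both higher doses. Of 30 tested MYC and ribosome biogenesis genes 5 fell, namely MYC, NOP16, DKC1, WDR74 and TBL3, and POLR1A rose, against 2.13% of all genes falling and 4.3% rising, while 15 were falling at an unadjusted p under 0.05, against 8.97% of all genes. The slope was above 0 for 4 of the 30, and the summed level was 7189 CPM in untreated cells and 7057, 6866 and 6193 CPM at 5, 12.5 and 25 nM, with 8043 CPM in the second untreated library. DESeq2 called MYC as the only falling gene of the list. The slopes of NOP16, DKC1, WDR74 and TBL3 were small, from -0.21 to -0.13.

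Of 21 tested genes of the integrated stress response, ATF4, SLC7A5 and CTH fell and ATF5 and SLC1A4 rose, against 2.13% of all genes falling and 4.3% rising, and 2 of the 21 slopes were above 0. ATF4, the transcription factor at the center of this response, had 425 CPM in untreated cells and 376, 330.2 and 294 CPM at 5, 12.5 and 25 nM (slope -0.15 ± 0.04, edgeR adjusted p = 0.0175). Its relative ATF5 had 25.4 CPM in untreated cells and 39.3, 74.4 and 132 CPM at 5, 12.5 and 25 nM (slope 0.75 ± 0.14, edgeR adjusted p = 0.0266), the opposite direction. SLC1A4, a transporter of alanine and serine, had 6.68 CPM in untreated cells and 16.4, 23.9 and 33.2 CPM at 5, 12.5 and 25 nM (slope 0.44 ± 0.05, edgeR adjusted p = 4.3e-06), above both untreated libraries at every dose. SLC7A5, the large amino acid transporter, had 56.9 CPM at 25 nM, against 105 CPM in untreated cells (edgeR adjusted p = 0.00670), and CTH, cystathionine gamma-lyase, had 14.9 CPM at 25 nM, against 31 CPM in untreated cells (edgeR adjusted p = 0.0266). For 12 of the 21, all 3 doses lay below both untreated libraries, against 19.6% of all genes tested.

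In serine and one-carbon metabolism 3 of 20 tested genes fell and 1 rose, against 2.13% of all genes falling and 4.3% rising. PHGDH, the first enzyme of serine synthesis, had 68.4 CPM in untreated cells and 56.7, 46.5 and 41.5 CPM at 5, 12.5 and 25 nM (slope -0.20 ± 0.05, edgeR adjusted p = 0.00773). PHGDH was below both untreated libraries at every dose. PYCR1 had 77.4 CPM at 25 nM, against 98.4 CPM in untreated cells (edgeR adjusted p = 0.0478), and SHMT1, the cytosolic serine hydroxymethyltransferase, rose, with 68.4 CPM at 25 nM, against 42.6 CPM in untreated cells (edgeR adjusted p = 0.0275). Of 32 tested glycolysis and hypoxia genes, GAPDH (5418 CPM in untreated cells and 5079, 4161 and 3942 CPM at 5, 12.5 and 25 nM) and TPI1 (841 CPM in untreated cells and 753, 666 and 595 CPM at 5, 12.5 and 25 nM) fell, and SLC16A3, a lactate exporter, rose with 0.366 CPM in untreated cells and 0.324, 0.511 and 2.10 CPM at 5, 12.5 and 25 nM (slope 1.34 ± 0.24, edgeR adjusted p = 0.000588). GAPDH and TPI1 had edgeR adjusted p values of 0.0147 and 0.0361. SLC16A3 passed the filter on low values only through the 25 nM library.

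Among genes of T-cell identity and function, some lists held rising members, while the T-cell markers were uncalled. Of 27 tested T-lineage transcription factors 5 rose and none fell, against 4.3% of all genes rising and 2.13% falling (edgeR; 2 falling at an unadjusted p under 0.05, and 0 by DESeq2 or limma voom). GATA3, the factor of T helper 2 cells, had 132 CPM in untreated cells and 157, 180.1 and 236 CPM at 5, 12.5 and 25 nM (slope 0.25 ± 0.04, edgeR adjusted p = 0.000273). RUNX3, a factor of cytotoxic T cells, had 249.6 CPM in untreated cells and 244, 276 and 351 CPM at 5, 12.5 and 25 nM (slope 0.22 ± 0.04, edgeR adjusted p = 0.000916), with 5 nM just below untreated cells. TOX2 had 9.97 CPM in untreated cells and 14.7, 16.7 and 22.6 CPM at 5, 12.5 and 25 nM (slope 0.27 ± 0.07, edgeR adjusted p = 0.0125). ID3 and ID2, inhibitors of E proteins, had 3.61 and 7.41 CPM at 25 nM, against 0.731 and 2.35 CPM in untreated cells (edgeR adjusted p = 0.00794 and 0.0386). For ID2 the second untreated library, at 7.93 CPM, exceeded every dose.

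Of 33 cytotoxic and natural killer cell genes, 8 passed the filter on low values, of which 4 rose and none fell, against 4.3% of all genes rising (edgeR; 1 falling at an unadjusted p under 0.05, and 0 by DESeq2 or limma voom). GZMM and CTSW were under 0.5 CPM in untreated cells and passed the filter through the treated libraries, so the share that rose is partly set by the filter. GZMM, granzyme M, had 0.0522 CPM in untreated cells and 0.865, 0.909 and 3.76 CPM at 5, 12.5 and 25 nM (slope 1.02 ± 0.24, edgeR adjusted p = 0.00767). CTSW, cathepsin W, had 0.418 CPM in untreated cells and 0.595, 1.76 and 3.46 CPM at 5, 12.5 and 25 nM (slope 1.07 ± 0.20, edgeR adjusted p = 0.000739). PRF1, perforin, had 4.70 CPM in untreated cells and 4.70, 6.59 and 10.6 CPM at 5, 12.5 and 25 nM (slope 0.51 ± 0.12, edgeR adjusted p = 0.00967), and CD244, a receptor of killer cells, 3.60 CPM in untreated cells and 3.41, 4.77 and 7.31 CPM at 5, 12.5 and 25 nM (slope 0.48 ± 0.13, edgeR adjusted p = 0.0306). DESeq2 called CTSW alone. CD8B, a subunit of the CD8 coreceptor, had 0.104 CPM in untreated cells and 0.270, 1.42 and 2.05 CPM at 5, 12.5 and 25 nM (slope 1.08 ± 0.25, edgeR adjusted p = 0.00767), and CD86, a costimulatory ligand, had 3.81 CPM in untreated cells and 5.46, 12.6 and 17.7 CPM at 5, 12.5 and 25 nM (slope 0.72 ± 0.09, edgeR adjusted p = 5.8e-06). IL6R, the IL-6 receptor, had 153 CPM in untreated cells and 161, 201 and 272 CPM at 5, 12.5 and 25 nM (slope 0.32 ± 0.05, edgeR adjusted p = 5.1e-05), and STAT5A 19.6 CPM in untreated cells and 15.9, 20.4 and 24.1 CPM at 5, 12.5 and 25 nM (slope 0.26 ± 0.06, edgeR adjusted p = 0.0116). Of 13 tested costimulatory and checkpoint receptors, CD86 and CD244 rose, and TNFRSF9, given above, and TIGIT fell. TIGIT, an inhibitory receptor, had 81.6 CPM in untreated cells and 92.8, 80.0 and 65.1 CPM at 5, 12.5 and 25 nM (slope -0.22 ± 0.06, edgeR adjusted p = 0.0283). STAT5A at 5 nM was below untreated cells, whereas CD86 and IL6R were above both untreated libraries at every dose. CD8B, under 0.5 CPM in untreated cells, passed the filter on low values through the treated libraries. T-cell markers were uncalled (0 of 11, edgeR; 0 at an unadjusted p under 0.05, and 0 by DESeq2 or limma voom).

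Among genes of the machinery that the drug uses and hits, few slopes were called, as among all genes (4.3% rising and 2.13% falling). Of 20 tested genes of uptake, activation and breakdown of cytidine analogs, 1 rose and 1 fell (edgeR). Among the 16 tested DNA methyltransferase, TET and reader genes 0 were called (edgeR; 1 rising and 2 falling at an unadjusted p under 0.05, and 0 by DESeq2 or limma voom). DNMT1, the maintenance methyltransferase, had 363 CPM in untreated cells and 375, 405 and 417 CPM at 5, 12.5 and 25 nM (slope 0.07 ± 0.05, edgeR adjusted p = 0.457). The de novo enzymes were low, DNMT3A at 1.41 CPM in untreated cells and 1.08, 0.852 and 1.40 CPM at 5, 12.5 and 25 nM and DNMT3B at 0.679 CPM in untreated cells and 0.270, 0.739 and 0.901 CPM at 5, 12.5 and 25 nM. DCK, the kinase that activates decitabine, had 51.9 CPM in untreated cells and 57.8, 63.1 and 64.2 CPM at 5, 12.5 and 25 nM (slope 0.07 ± 0.04, edgeR adjusted p = 0.447). The nucleoside transporter SLC29A1 had 93.4 CPM in untreated cells and 109, 109 and 104 CPM at 5, 12.5 and 25 nM, and DCTD, dCMP deaminase, had 45.5 CPM in untreated cells and 45.3, 44.8 and 45.3 CPM at 5, 12.5 and 25 nM, both uncalled (edgeR adjusted p = 0.790 and 0.998). SAMHD1, a hydrolase of deoxynucleotide triphosphates including that of decitabine, rose, with 13.5 CPM in untreated cells and 13.7, 17.6 and 21.7 CPM at 5, 12.5 and 25 nM (slope 0.29 ± 0.07, edgeR adjusted p = 0.00907). SLC29A2, the second equilibrative transporter, fell, with 34.6 CPM in untreated cells and 29.3, 22.8 and 18.2 CPM at 5, 12.5 and 25 nM (slope -0.29 ± 0.07, edgeR adjusted p = 0.00564). CDA, cytidine deaminase, did not pass the filter on low values. DESeq2 called SLC29A2 and not SAMHD1.

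Cell cycle and damage groups had few called slopes, as did all genes (4.3% rising and 2.13% falling), so the counts do not set these groups apart. Of 26 tested p53 targets, 37 mitosis genes and 24 replication-dependent histone genes 0 were called in either direction (edgeR; 3 rising and 1 falling, 1 and 0, and 3 and 0 at an unadjusted p under 0.05, and 0 by DESeq2 or limma voom). CDKN1A, the p53 target p21, had 22.8 CPM in untreated cells and 8.65, 9.43 and 12.4 CPM at 5, 12.5 and 25 nM, and 10.1 CPM in the second untreated library. All 3 doses lay below the untreated library of the set, while the second untreated library fell among them. Of 41 DNA replication genes E2F2, a transcription factor of S-phase genes, rose, with 56.7 CPM in untreated cells and 65.4, 88.1 and 133 CPM at 5, 12.5 and 25 nM (slope 0.44 ± 0.05, edgeR adjusted p = 4.7e-07), and POLD2 fell.

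The third comparison set HH against PF382 and TLOm1, which had decitabine at the same 3 doses, each line with its own untreated library of the set. For the 3 doses against untreated, the difference between HH and the mean of both other lines passed for 0 of 13462 genes in edgeR (844 at an unadjusted p under 0.05, and 7 called by DESeq2). The 8 genes with the smallest p, ARHGAP9, LRP11, VAMP8, PLCL1, AKR1C1, DOC2GP, SRGN and CBLN3, had edgeR adjusted p values of 0.194 to 0.241. For the dose slope, 213 genes had a higher slope in HH than in both others on average (1.58%) and 265 a lower one (1.97%), together 3.55%. The slope itself was called for 2496 genes in PF382 (18.5%) and 162 in TLOm1 (1.2%), against 866 in HH (6.43%). Of the 579 rising genes of HH, 404 had a slope above 0 in PF382 (69.8%, against 47.7% of all genes) and 459 in TLOm1 (79.3%, against 50.2%). Of the 287 falling genes, 195 had a slope below 0 in PF382 (67.9%, against 52.3% of all genes) and 221 in TLOm1 (77.0%, against 49.8%). The edgeR test of the difference passed for 159 of the 579 and 59 of the 287. These genes were chosen by their HH slope, which also enters the difference, so both counts are partly set by that choice.

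Several genes with a called slope in HH had little slope elsewhere. The slope of USP11 was 0.85 in HH, with 0.07 in PF382 and 0.03 in TLOm1 (difference 0.81, edgeR adjusted p = 3.9e-07). That of S100A11 was 1.28 in HH, with 0.02 in PF382 and -0.01 in TLOm1 (difference 1.27, edgeR adjusted p = 9.8e-07), and that of POLR1A 0.44 in HH, with -0.13 in PF382 and 0.01 in TLOm1 (difference 0.50, edgeR adjusted p = 7.7e-07). ONECUT2 differed by 3.08 (edgeR adjusted p = 9.8e-07). In each case the slopes of the other lines stood near 0. ONECUT2 was already present in untreated PF382 and TLOm1, at 10.5 and 12.6 CPM, with 9.36 and 12.1 CPM at 25 nM. In HH it had 0 CPM in untreated cells and 4.21 CPM at 25 nM, and passed the filter through the treated libraries. AIRE, by contrast, had 1.38 in HH, with 3.35 in PF382 and 1.03 in TLOm1, and no difference was called (difference -0.81, edgeR adjusted p = 0.661). Among the rising cancer-testis and meiosis genes MAGEB2 alone of those named was steeper in HH (difference 1.66, edgeR adjusted p = 0.0437), and BRDT had 3.61 in HH, with 2.22 in PF382 and 2.44 in TLOm1. The slope of PASD1, uncalled in HH, also differed from the other lines, with a smaller edgeR p than that of USP11.

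The cholesterol genes split. HMGCS1 had slopes of -0.59 in HH, with -0.23 in PF382 and -0.22 in TLOm1 (difference -0.37, edgeR adjusted p = 0.0133) and MSMO1 -0.42 in HH, with -0.08 in PF382 and -0.13 in TLOm1 (difference -0.32, edgeR adjusted p = 0.0020). Both were steeper in HH. CYP51A1 had slopes of -0.38 in HH, with 0.18 in PF382 and -0.16 in TLOm1 (difference -0.39, edgeR adjusted p = 0.000295). DHCR7, FDPS and MVD fell in PF382 at slopes of -0.41, -0.20 and -0.29, and their differences were not called (-0.09, -0.05 and -0.03, edgeR adjusted p = 0.390, 0.670 and 0.880). Of the interferon-stimulated genes, IFITM1, ISG15, DHX58 and OAS2 had higher slopes in HH, with differences of 0.56, 0.38, 0.42 and 0.36 (edgeR adjusted p = 0.00756, 0.00513, 0.00696 and 0.0244), while DDX58 and HERC5 were not called (0.21 and 0.30, edgeR adjusted p = 0.277 and 0.0775). MYC had slopes of -0.27 in HH, with -0.44 in PF382 and -0.16 in TLOm1, with no difference called (edgeR adjusted p = 0.915).

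**Figure D5:**
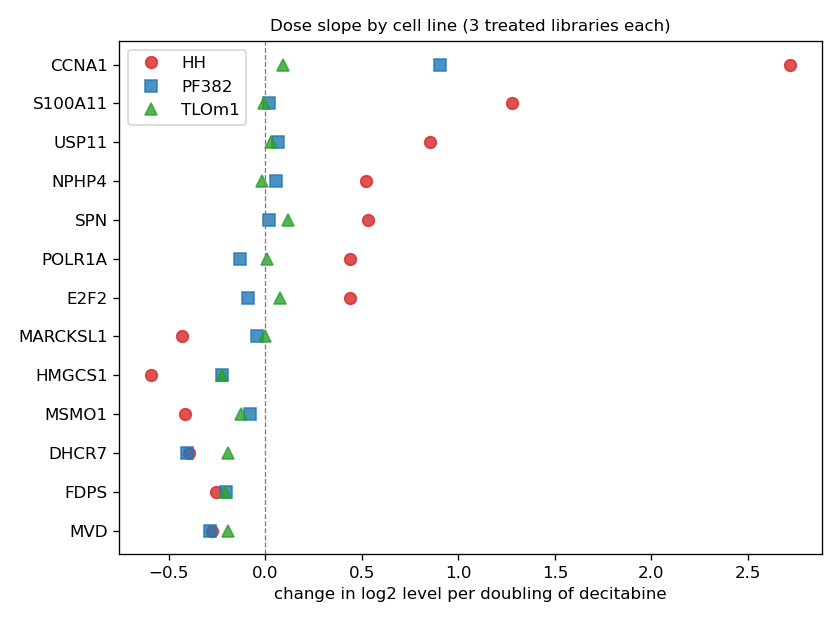
Change in log2 level per doubling of decitabine over the 3 treated libraries of HH, PF382 and TLOm1 for 13 genes named in the text. USP11, NPHP4, POLR1A and S100A11 stood at 0.44 or more in HH and between -0.13 and 0.07 in both other lines, whereas DHCR7 had -0.39 in HH and -0.41 in PF382.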

How the data were processed

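RNA-seq libraries were analysed from whole read counts per gene, one table per library, as deposited by the authors. In the submitters' processing notes the build is GRCh37.p2 and the tools are limma, STAR and DESeq2, with no version or role for any. The counter and the annotation were not given in the sources used here. Labels name poly-A RNA in 1 field and, in another, RNA depleted of ribosomal RNA with a stranded kit. All 25559 genes were read for 24 libraries (13892514 to 32496676 counts), and 13462 with a mean of at least 0.5 CPM over the 4 HH libraries of the set were tested.

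Levels are CPM after TMM scaling. Tests were quasi-likelihood F tests of edgeR 4.0.16 in R 4.3.3 on all 24 libraries with 12 group means (line by set by treated or untreated). The dose slope added 1 slope on centred log2 dose for each line and drug. P values were adjusted over all genes tested by Benjamini-Hochberg, with a threshold of 0.05, and errors are standard errors from the fold change and the F statistic. The scripts were tested on simulated data. Alternatives were DESeq2 1.42.0, limma voom 3.58.1, other size factors, other filters, fewer libraries, other untreated libraries and each dose left out. The fit at 25 nM, the trend over dose rank and the count of silent genes at single doses were added after the data were seen.

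Genes were named by rule: the largest changes in the effect test on 1 side of both untreated libraries, the 6 smallest p in each slope direction, up to 4 members of each gene list by p, the genes that act on decitabine, and the most raised silent genes. Members of the main lists beyond these 4, ONECUT2, S100A11 and some genes of contrast (PMVK, INSIG1, SREBF2, PASD1, NFKB1, NFKBIA and SLC16A3 among them) were named after their values were seen. The members of the series and the 35 gene lists were chosen with earlier results of these data known. Promoter sequences came from RefSeq (GRCh38.p14) and were matched by symbol. Some genes that the rule would name are not reported here.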

Additional observations from a re-analysis of the deposited data

Results flagged for a closer look

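A dose slope that differed between HH and the mean of PF382 and TLOm1 marked 30 of the genes named above that were looked at for it. PASD1 was not among those looked at, though its difference had a smaller edgeR p than that of USP11. Many of the 30 were named for their HH slope, which also enters the difference, so their number is partly set by that choice. ONECUT2, CCNA1, MAGEB2 and SLC16A3 also passed the filter on low values only through treated HH libraries. The values are differences in log2 level per doubling of decitabine, each followed by its adjusted p (edgeR quasi-likelihood F test, Benjamini-Hochberg over 13462 genes), and each line has 3 treated libraries. Slopes were higher in HH for ONECUT2 (3.08, 9.8e-07), CCNA1 (2.22, 0.00248), MAGEB2 (1.66, 0.0437), CARD9 (1.41, 0.00159), S100A11 (1.27, 9.8e-07), SLC16A3 (1.23, 0.00504), ATF5 (0.84, 0.0475), XAF1 (0.82, 0.0325), USP11 (0.81, 3.9e-07), PARP12 (0.79, 0.027), FAM50B (0.66, 0.00115) and IFITM1 (0.56, 0.00756). The same held, with smaller differences, for NPHP4 (0.50, 8.6e-06), POLR1A (0.50, 7.7e-07), SPN (0.46, 2.9e-05), E2F2 (0.45, 1.4e-05), TP73 (0.42, 0.00743), DHX58 (0.42, 0.00696), ISG15 (0.38, 0.00513), OAS2 (0.36, 0.0244), SREBF1 (0.36, 0.00791), SLC1A4 (0.36, 0.000723), MAPKAPK3 (0.23, 0.0114) and EPB41L2 (0.22, 0.0216). Slopes were lower in HH for CYTIP (-2.35, 0.00658), TRAF1 (-0.42, 0.000932), MARCKSL1 (-0.41, 4.4e-05), CYP51A1 (-0.39, 0.000295), HMGCS1 (-0.37, 0.0133) and MSMO1 (-0.32, 0.002). For CYTIP, TRAF1 and CYP51A1 the slope in PF382 was above 0, at 4.02, 0.53 and 0.18.

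Some genes moved in opposite directions between lines without a test of the difference passing or being run for that pattern. LRP11 was below its untreated library at all 3 doses in HH (log2 -0.59) and above it at all 3 doses in PF382 (0.14) and TLOm1 (0.44). ONECUT2 was above its untreated library at all 3 doses in HH (log2 8.13) and below it at all 3 doses in PF382 (-0.33) and TLOm1 (-0.12). At 5 nM in HH this rested on 1 count (0.0541 CPM), below the 0.0861 CPM of the second untreated HH library. The ONECUT2 value starts from no count in untreated HH and depends on the prior count, whereas untreated PF382 and TLOm1 had 10.5 and 12.6 CPM. These differences in direction were not tested further.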

How the results depend on the processing

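The count for the 3 doses against untreated cells moved most, and rests on the untreated library. Set against 1 gene higher and 1 lower by edgeR, DESeq2 gave 40 and 15, limma voom 1 and 3, and fits of the 12 libraries of the OC set or of the 4 HH libraries 0 and 0 (1348 and 1521 genes at an unadjusted p under 0.05). The second untreated library gave 2043 and 1782, both averaged 1386 and 1050, and the fitted 25 nM level 1280 and 1102 against the first untreated library and 3511 and 3034 against the second. Without replicate libraries of single doses, the counts ranged from 0 to 22 higher and from 0 to 11 lower. The dose slope gave 335 rising and 136 falling genes with DESeq2 and 885 and 703 by dose rank, and with 1 dose left out 27 to 581 rising and 8 to 235 falling. The difference between lines gave 0 genes, 7 with DESeq2 and 0 to 3 with 1 dose left out. Silent genes at 0.5 CPM numbered 8. No named gene with an effect or slope changed direction under the alternatives run. For named slopes, 806 values stayed on their side of the threshold, 210 were no longer past it and 7 came past it. Of the named effects 206 stayed, 107 came past and 9 no longer passed. TMM, DESeq2 size factors and voom gave medians of all genes that differed by less than 0.01 on the log2 scale. No paired analysis was possible because each condition has 1 library and all share replicate number 1. Depth limits genes under 1 CPM, where the floor of 3 counts is 0.157 CPM, and counting intervals cover counting error only. With 1 library per dose, library and dose cannot be told apart.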
